A study of Mus musculus with 6 samples.

Results

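The MHC class II antigen presentation genes were described here as 10 mouse genes, listed by name: H2-Aa, H2-Ab1, H2-Eb1, Cd74, Ciita, H2-DMa, H2-DMb1, H2-DMb2, H2-Oa and H2-Ob. All 10 were found by symbol among the 55331 genes of the gene table, and all 10 were among the 15460 genes that the authors tested. The 5 splicing tables held 43 events of these genes. Polyadenylated RNA came from crypt cells of the small intestine of C57BL/6 mice aged 60 days, in 2 groups of 3 libraries. WT mice carried the floxed Ptbp1f/f alleles and no Cre. PTBP1_KO mice carried the same alleles with Vil-creER+/-, a tamoxifen-inducible Cre under villin control, which is active in intestinal epithelium. Mice of both groups, controls included, were given tamoxifen at 100 mg/kg in 2 daily injections, and cells were taken 20 h after the last one. PTBP1 is an RNA-binding protein that regulates alternative splicing, and the series addresses its role in regeneration of the intestinal epithelium. The labels do not say which libraries share an animal, a litter or a preparation, so p-values measure the spread between these libraries, which may be partly technical.

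MHC class II molecules carry peptides from endocytosed proteins to the cell surface, where CD4+ T cells read them. An alpha chain and a beta chain pair in the endoplasmic reticulum with the invariant chain, encoded by Cd74, which fills the groove and directs the complex to endosomes. Proteases then trim the invariant chain, H2-DM exchanges its last fragment for a peptide, and H2-DO restrains H2-DM. Transcription of the whole set depends on CIITA, a coactivator that binds no DNA itself and is held at class II promoters by the RFX complex, CREB and NF-Y on conserved boxes. Professional antigen-presenting cells make class II constitutively, and epithelial cells of the small intestine are known to make it as well, under interferon gamma and the microbiota.

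The targeted gene and the cell type label were checked first. Ptbp1 was listed at 230.0 FPKM in WT and at 122.8 in PTBP1_KO, and it fell in the authors' deposited table with a log2 fold change of -0.91 and a q of 0.0125. FPKM, fragments per kilobase of transcript scaled to library size, is a level per transcript length, and the gene table holds 1 such value per group, so no level below has an SD. The label of epithelial cells was borne out by high levels of epithelial markers: Epcam, an epithelial adhesion molecule, had 1220 FPKM in WT and 1340 in PTBP1_KO, and the keratin Krt19 had 2011 and 2191 FPKM. Leukocyte transcripts were present at low levels in both groups.

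The classical chains, the invariant chain, H2-DMa and H2-DMb1 were abundant in crypt cells of both groups, Ciita, H2-DMb2 and the H2-DO genes were not, and no member passed the authors' test for a difference between genotypes. All 10 members were listed with a higher FPKM in PTBP1_KO than in WT, where 54.7% of all tested genes were. A gene was called when the authors' Cuffdiff q was below 0.05, and 0 of 10 members were called in either direction. Among all 15460 tested genes 83 were called, which is 0.537%, and 60 of them were higher in PTBP1_KO, which is 0.388%. None of the 10 members had an unadjusted p below 0.05 in the authors' deposited table either, where 4.35% of tested genes did. The members' p ranged from 0.0546 for H2-Aa to 0.829 for H2-Oa in the authors' deposited table, and all 10 had a q of 0.9998. The members' median log2((PTBP1_KO + 1)/(WT + 1)) of FPKM was 0.26, with a range from 0.05 for H2-Oa to 0.34 for H2-DMb2, and the median over all tested genes was 0.02. Summed over the 10 members, FPKM was 1746 in WT and 2045 in PTBP1_KO, a ratio of 1.17. With 1 value per group, the order of neighbouring levels cannot be set against a spread between libraries.

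**Figure D1:**
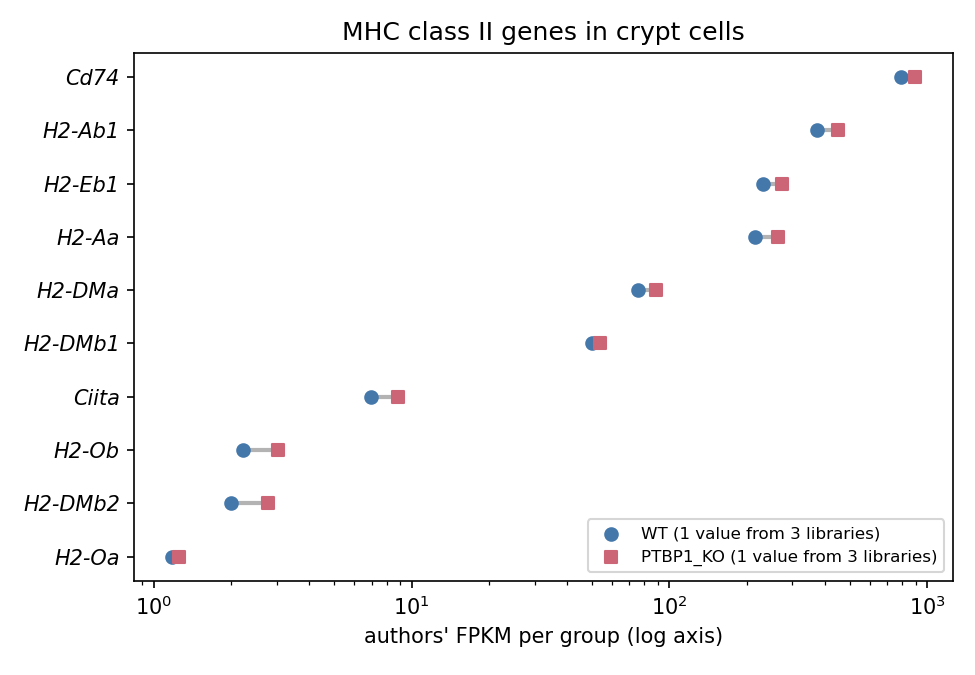
FPKM of each member (log axis) in WT (blue circles) and PTBP1_KO (red squares), as 1 value per group that the authors made from 3 libraries, with no error bar because the table gives none. Levels run from 1.17 FPKM for H2-Oa to 790 FPKM for Cd74 in WT, and the order of the 10 genes is the same in both groups.

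Of the class II genes 8 are neighbours in the genome. The promoters of the set are shown because control through CIITA is known for it. Whether this control bears on the listed levels was not tested. In the GENCODE M21 annotation of mm10, H2-Oa, H2-DMa, H2-DMb2, H2-DMb1, H2-Ob, H2-Ab1, H2-Aa and H2-Eb1 lie in this order between positions 34092340 and 34316674 of chromosome 17. The RefSeq promoter table (build GRCm38.p6, 250 bases before to 50 bases after each start) held 8 promoters of 7 members, 2 of them for H2-DMa. H2-Ab1, Ciita and Cd74 had no entry. Each promoter was searched on both strands for the X box letters CCNNGNNAC, where N is any base, followed on the same strand by the Y box letters ATTGG, with their starts 25 to 40 bases apart. The X box is the known site of RFX and the Y box that of NF-Y. The pair was found for 3 of 7 members, H2-DMb1, H2-Ob and H2-Oa, and in 298 of 32851 promoters of the table, which is 0.907%. Below are stretches of 55 bases around the Y box, written 5′ to 3′ on the strand of each gene. Capitals mark GATTGG, the Y box letters with the base before them, and the X box letters where the pair was found.
H2-DMb1: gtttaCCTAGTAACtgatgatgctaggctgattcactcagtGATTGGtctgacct
H2-DMb2: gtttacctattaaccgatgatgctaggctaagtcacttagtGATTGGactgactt
H2-Eb1: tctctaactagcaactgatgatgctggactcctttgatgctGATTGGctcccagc
H2-Ob: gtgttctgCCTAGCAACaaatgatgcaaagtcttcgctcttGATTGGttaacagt
H2-Oa: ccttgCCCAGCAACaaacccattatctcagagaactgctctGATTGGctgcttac
H2-Aa: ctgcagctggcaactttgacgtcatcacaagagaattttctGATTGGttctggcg

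These stretches lie at chr17:34153088-34153142 (H2-DMb1), chr17:34145117-34145171 (H2-DMb2), chr17:34305766-34305820 (H2-Eb1), chr17:34238806-34238860 (H2-Ob) and chr17:34092294-34092348 (H2-Oa) on the plus strand, and at chr17:34287859-34287913 (H2-Aa) on the minus strand. In these 6 genes the letters ATTGG began 43 to 90 bases before the listed start, from 43 in H2-Oa to 90 in H2-DMb2. The listed starts are those of RefSeq and can differ from the GENCODE positions given for the genes. By GENCODE, the stretches of H2-DMb2 and H2-DMb1 lie inside the genes, which begin at 34143307 and 34153072. GATTGG was chosen for display after the sequences were seen. It occurred on the strand of the gene within 100 bases before the start in 6 of 7 members and in 4.60% of all promoters. On either strand and anywhere in the window, GATTGG occurred in 16.1% of all promoters and ATTGG in 37.4%. In H2-DMa the only match of GATTGG lay 198 bases before the second of its listed starts. The letters ATGATG, also picked after reading the stretches, stood ahead of GATTGG in 4 of 6 stretches, those of H2-DMb1, H2-DMb2, H2-Eb1 and H2-Ob, and in 11.2% of all promoters on either strand. The spacing of the pair was 37 bases in H2-DMb1 and H2-Oa and 34 in H2-Ob. These are matches of letters. No binding was measured here, and the absence of the X box letters from a stretch says only that these letters are not there.

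Ciita, the coactivator that governs the set, was transcribed at a moderate level. Its level was 6.97 FPKM in WT and 8.87 in PTBP1_KO, which is 27.3% higher, with a log2 fold change of 0.35 and a p of 0.071 in the authors' deposited table. It ranked 8050 of 15460 tested genes in WT, near the middle of the table. Ciita lies on chromosome 16, 10480059 to 10528418, plus strand, and overlaps Dexi on the opposite strand over 25888 bases. Dexi was listed at 8.06 FPKM in WT and 7.95 in PTBP1_KO. The library kit keeps strand, per the labels' protocols, and whether the authors' counting used it is not given in the sources used here, so reads of overlapping genes on opposite strands may not be told apart.

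The classical alpha and beta chains were among the most abundant transcripts of the table. H2-Ab1 (34257689 to 34269419, plus strand of chromosome 17), the beta chain of I-A, had 373 FPKM in WT and 451 in PTBP1_KO. H2-Aa (34282744 to 34287823, minus strand), its alpha chain, had 216 and 264 FPKM. H2-Eb1 (34305867 to 34316674, plus strand), the beta chain of I-E, had 230.1 and 274 FPKM. In WT these 3 genes ranked 239, 418 and 388 among the tested genes, within the top 2.70%. Their levels were 19.1% to 22.4% higher in PTBP1_KO, with a p of 0.0935 for H2-Ab1, 0.0546 for H2-Aa and 0.132 for H2-Eb1 in the authors' deposited table. The ratio of H2-Aa to H2-Ab1 was 0.579 in WT and 0.586 in PTBP1_KO, so the listed levels of the I-A partners kept nearly the same proportion. C57BL/6 mice are known to lack the alpha chain of I-E: its gene, listed as the pseudogene H2-Ea-ps, had 0.0175 FPKM in WT, was listed at 0 in PTBP1_KO and was not tested. H2-Eb1 overlaps the antisense gene Gm20513, which was listed at 0.0897 FPKM in WT and 0.353 in PTBP1_KO.

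Cd74 (chromosome 18, 60803848 to 60812652, plus strand), which encodes the invariant chain, had the highest level of the 10 genes. It was listed at 789.8 FPKM in WT and 898 in PTBP1_KO, which is 13.7% higher, with a p of 0.349 in the authors' deposited table. It ranked 118 of 15460 tested genes in WT and 100 in PTBP1_KO. Its level was 2.12 times that of H2-Ab1 in WT and 1.99 times in PTBP1_KO.

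The H2-DM genes encode the peptide exchange factor. H2-DMa (34119541 to 34139101, plus strand of chromosome 17), the alpha chain, had 75.5 FPKM in WT and 88.4 in PTBP1_KO. H2-DMb1 (34153072 to 34160230), the more abundant beta chain gene, had 49.95 and 53.7 FPKM, which is 7.51% higher. H2-DMb2 (34143307 to 34151555), a second beta chain gene next to it, had 1.99 and 2.79 FPKM, which is 40.2% higher. The p was 0.594 for H2-DMa, 0.487 for H2-DMb1 and 0.116 for H2-DMb2 in the authors' deposited table. H2-DMb2 stood at 0.0398 of the level of H2-DMb1 in WT. The H2-DMb1 and H2-DMb2 transcripts of 1404 and 1424 bases were identical at 94.4% of 1255 aligned positions, and how the authors' counting assigned reads that fit both is not given in the sources used here, so the value of H2-DMb2 is uncertain. H2-DMa overlaps Brd2 on the opposite strand over 3094 bases, and Brd2, a chromatin reader, had 115 FPKM in WT and 109 in PTBP1_KO.

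The H2-DO genes, which encode the modulator of H2-DM and are known mainly from B cells and thymic epithelium, were at the bottom of the set. H2-Ob (34238903 to 34254414, plus strand of chromosome 17) had 2.22 FPKM in WT and 3.04 in PTBP1_KO, which is 36.5% higher, with a p of 0.158 in the authors' deposited table. H2-Oa had 1.17 and 1.25 FPKM, which is 6.64% higher, with a p of 0.829 in the authors' deposited table. H2-Oa (34092340 to 34095234, plus strand) lies wholly under the antisense gene BC051537, which was listed at 0.0129 FPKM in WT and 0.0130 in PTBP1_KO. H2-Oa stood at 0.0156 of the level of its paralog H2-DMa in WT. From Cd74 to H2-Oa the levels in WT spanned 673-fold. By the likeness of their authors' log2 fold change to the members' median of 0.26, over the 2 groups and among genes of at least 5 FPKM in the higher group, the nearest tested genes were Psat1, C030006K11Rik and Tinagl1. Genes within 0.05 of that median numbered 468, so many genes lay as close.

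Splicing of the class II genes was described from reads that include or skip a region. The authors' tables set 3 libraries (set 1) against 3 others (set 2), and no header says which genotype is which, so no direction by genotype is given. Changed events were those with an FDR under 0.05 by the authors' test, a difference in inclusion level of at least 0.1 in size and a mean of 20 or more reads per library. Of the 43 events, 27 were skipped exons, 6 alternative 3' splice sites, 7 pairs of mutually exclusive exons and 3 retained introns, and H2-DMb2 had none. The read minimum was met by 39 events, and 1 of them was changed. Over all genes 843 of 53918 events with enough reads were changed, which is 1.56%.

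The changed event was an exon of Cd74, the invariant chain. The exon of 192 bases (chromosome 18, 60811294 to 60811485, plus strand, mm10) is coding in full, codes for 64 residues without a shift of frame and is exon 7 of the GENCODE M21 transcripts ENSMUST00000097563.8 and ENSMUST00000167610.1. The protein-coding transcript ENSMUST00000050487.15 lacks it. This exon is known to separate the long p41 form of the invariant chain from the short p31 form, and it encodes a thyroglobulin type domain that binds cathepsin L. Inclusion levels in the authors' set 1 were 0.232, 0.192 and 0.22, and in set 2 they were 0.1, 0.113 and 0.105. The 3 libraries of set 1 were all above the 3 of set 2. The event was picked by its FDR and difference, and the share of all events so separated was not computed. The means were 0.215 and 0.106, a ratio of 2.03, and the authors' deposited table gives a difference of 0.109 with p and FDR listed as 0. Each library held between 10013 and 17955 reads of this event. With each of the 6 libraries left out in turn, the difference of the means lay between 0.1 and 0.12, and it was lowest, at the minimum of 0.1, without the first library of set 1. The same exon has a second entry, flanked upstream by the 93-base exon in place of the 91-base exon, in which inclusion was 0.997 to 1 in every library (difference of -0.002 and FDR of 1 in the authors' deposited table), so the levels above hold for transcripts that join the exon's immediate neighbours. Among skipped exons of all genes 632 of 37725 were changed, which is 1.68%. The difference lay just past the minimum of 0.1, and 589 of the 632 changed skipped exons had a difference at least as large.

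**Figure D2:**
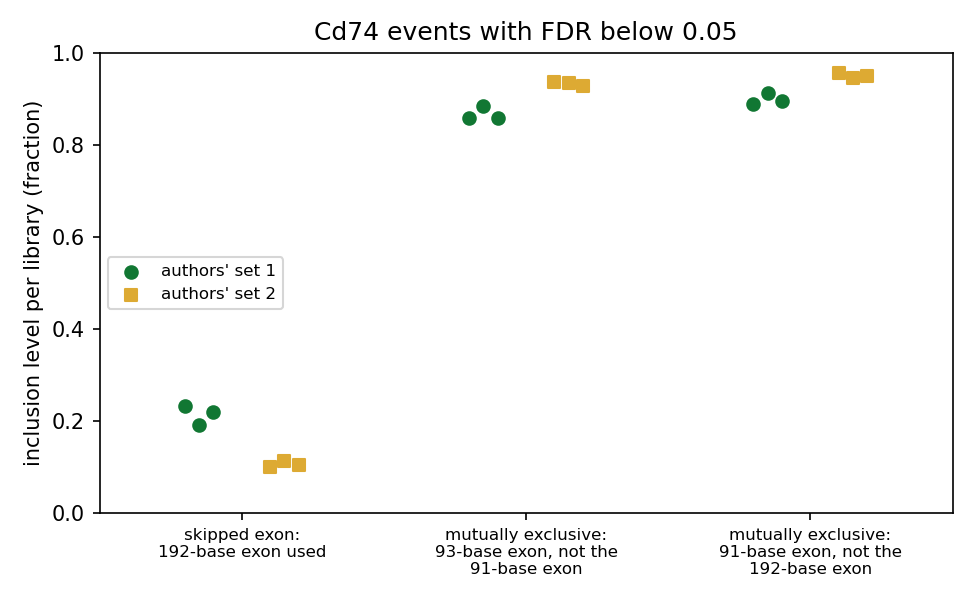
Inclusion level per library (fraction, 0 to 1) for the 3 Cd74 events with an FDR below 0.05, in the authors' set 1 (green circles) and set 2 (yellow squares). For the skipped exon the level is the share with the 192-base exon among transcripts that use both of its neighbouring exons, between 0.192 and 0.232 in set 1 and between 0.1 and 0.113 in set 2; for the pairs it is the share assigned to the first exon named.

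Further Cd74 events, 2 in number, had an FDR listed as 0 and a smaller difference. Both are pairs of exons in the mutually exclusive table that involve the same 192-base exon, as one of the pair or as the flank, so they share its reads and add no separate evidence. In the pair of the 91-base exon and the 192-base exon, the level of the first was 0.889, 0.913 and 0.896 in set 1 and 0.957, 0.946 and 0.951 in set 2, a difference of -0.052 in the authors' deposited table. In the pair of the 93-base and 91-base exons ahead of the 192-base exon, the levels were 0.859, 0.884 and 0.859 against 0.937, 0.935 and 0.928, a difference of -0.066 in the authors' deposited table. The sets did not overlap in either event, and the share of all pairs so separated was not computed. The same exon pair joined to the next exon downstream, not the 192-base exon, had a difference of 0.022 and an FDR of 0.832 in the authors' deposited table. Over all genes, 181 of 7358 mutually exclusive pairs with enough reads had an FDR below 0.05 with no minimum difference, which is 2.46%.

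No event of the other class II genes was changed. Of their 20 skipped exon entries with enough reads, 16 had an inclusion of at least 99% over all libraries. Entries can overlap, such as those of 273 and 256 bases in H2-Ab1. The 16 include a 2685-base form in H2-Aa at 99.6%, although its alternative 3' splice site entry gives this long form 0.840%. So a high level of an entry does not show that this form of the exon was the one used. Pairs in the mutually exclusive table had intermediate levels, 44.6% for Ciita, 57.2% and 66.0% for H2-Ab1 and 79.8% for H2-DMa, although each exon of these pairs had an inclusion of 97.6% or more in the skipped exon table. The largest absolute difference among the 38 unchanged events with enough reads was 0.066, that of the Cd74 pair above. Ciita had 1 rarely used exon of 228 bases (10493647 to 10493874), not wholly coding and exon 2 of the annotated transcripts that hold it, with an inclusion of 7.43% over all libraries and levels from 0.025 to 0.107. The Ciita event with the smallest p, exon 10518294 to 10518386, had a difference of 0.019 and a p of 0.506 in the authors' deposited table. In H2-Eb1 an alternative 3' splice site adds 127 bases and gives the 238-base form annotated as exon 4 of the transcript H2-Eb1-201. This long form had an inclusion of 2.05% over all libraries, with a p of 0.943 in the authors' deposited table. The long form of the H2-Aa alternative 3' splice site entry had an inclusion of 0.840%, with a difference of 0 and a p of 1 in the authors' deposited table. H2-Ab1 and H2-DMa had their smallest p in pairs of exons, with differences of 0.033 (p of 0.109) and 0.032 (p of 0.0347, FDR of 0.344) in the authors' deposited table. The skipped exon of H2-DMb1 (34155433 to 34155714) had a difference of 0.002 and a p of 1 in the authors' deposited table. The smallest p of H2-Oa and H2-Ob fell on events under the read minimum: an H2-Oa intron with 18.2 reads per library and a difference of -0.276 (FDR of 0.165), and an H2-Ob exon with 6.17 reads per library and a difference of -0.101 (FDR of 1), both in the authors' deposited table.

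**Figure D3:**
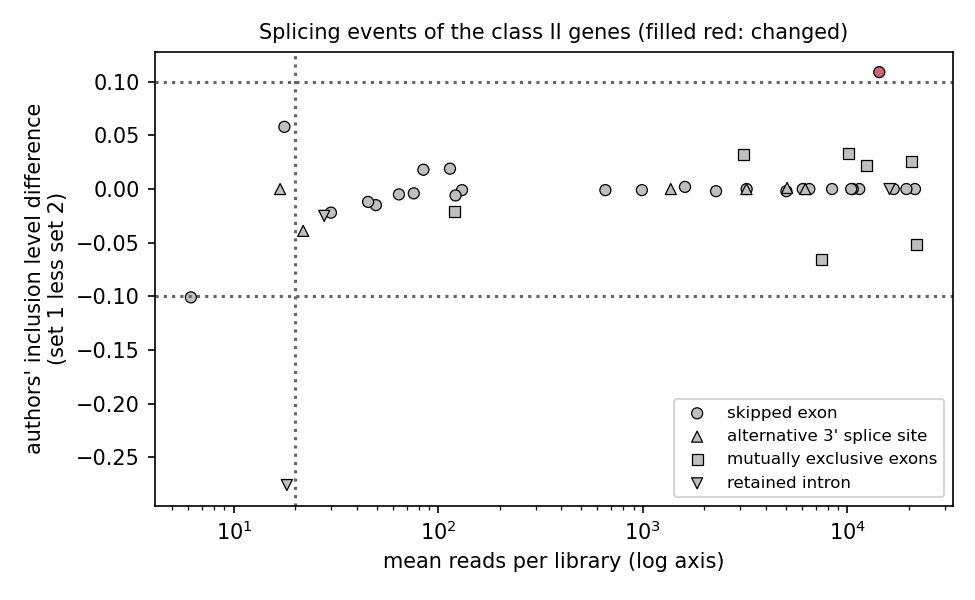
The authors' inclusion level difference (set 1 less set 2) of the 43 class II events against their mean reads per library (log axis), with marker shape for the event type and dotted lines at 20 reads and at differences of 0.1 and -0.1. The Cd74 exon, filled red, is the 1 changed event, and the 4 events left of the read line are not counted.

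Genes that act upstream of class II transcription showed no called difference. Of 10 partners and relatives of CIITA, none was called, none had a p below 0.05, 8 were listed higher in PTBP1_KO and the median log2 ratio was 0.04, or 0.03 after centring on all tested genes. Nfyc, a subunit of NF-Y, had 36.9 FPKM in WT and 38.6 in PTBP1_KO. Rfxap, a subunit of the RFX complex, had 27.1 and 25.4 FPKM, and it was listed lower in PTBP1_KO together with its partner Rfxank, at 9.88 and 8.61 FPKM. Rfx5, also of the RFX complex, was listed higher, at 5.46 FPKM in WT and 6.65 in PTBP1_KO. Rfxank and Rfx5 were named after their values were seen. Of 12 interferon gamma signalling genes, none was called, none had a p below 0.05, 9 were listed higher and the median was 0.11. Over all tested genes, 54.7% were listed higher, 4.35% had a p below 0.05 and 0.537% were called. Irf1, an interferon-induced activator of Ciita, had 114 FPKM in WT and 119 in PTBP1_KO, and the receptor chain Ifngr1 had 78.7 and 87.8 FPKM.

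Of 18 interferon gamma response genes, 1 was called and 13 were listed higher, with a median of 0.12. The shares over all tested genes were 0.537% called and 54.7% listed higher. The called gene was Ubd, a ubiquitin-like modifier, which rose from 14.8 to 33.4 FPKM with a log2 fold change of 1.18 and a q of 0.0125 in the authors' deposited table. The subunits of the immunoproteasome Psmb8 and Psmb9 had 179 and 64.1 FPKM in WT and 193 and 60.8 FPKM in PTBP1_KO, and neither was called.

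Genes of class II peptide processing and trafficking were mostly listed on the members' side, and none was called. Of 16 genes, 15 were listed higher in PTBP1_KO, with a median of 0.21, and 3 had an unadjusted p below 0.05. Among all tested genes 54.7% were listed higher and 4.35% had a p below 0.05. The chaperones Hsp90b1 and Canx had the highest levels, at 471 and 259 FPKM in WT and 535 and 319 FPKM in PTBP1_KO. The 3 genes with a p below 0.05 were the protease genes Ctsd (p of 0.0173) and Lgmn (p of 0.0293) and the ubiquitin ligase gene March1 (p of 0.00185), with q of 0.695, 0.895 and 0.191 in the authors' deposited table. March1, which marks class II for turnover, was at a low level, 0.150 FPKM in WT and 0.378 in PTBP1_KO. Ctss, the cathepsin that trims the invariant chain, and Ctsl, the cathepsin bound by its long form, were named after their values were seen. Ctss had 68.2 and 81.4 FPKM, Ctsl had 7.68 and 9.35 FPKM, and neither had a p below 0.05.

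Genes chosen as neighbours of the members, in or near the class II region, were listed to both sides, unlike the members. Their positions were not looked up here. Psmb8, Psmb9, Tap1 and Tap2 also belong to the interferon gamma response list, so the lists overlap. Of 12 neighbours 11 were tested, none was called and the median was -0.04. In PTBP1_KO 5 were listed higher and 6 lower, where 54.7% of all tested genes were listed higher. None had a p below 0.05. H2-K1, a class I heavy chain gene, had 1337 FPKM in WT and 1291 in PTBP1_KO. H2-Eb2, itself a class II beta chain gene but not a member, was among the neighbours listed higher. It had 0.360 FPKM in WT and 0.495 in PTBP1_KO, with a p of 0.224 in the authors' deposited table. H2-Eb2 was named after its values were seen. The difference between members and neighbours was not tested, since each group has 1 value.

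**Figure D4:**
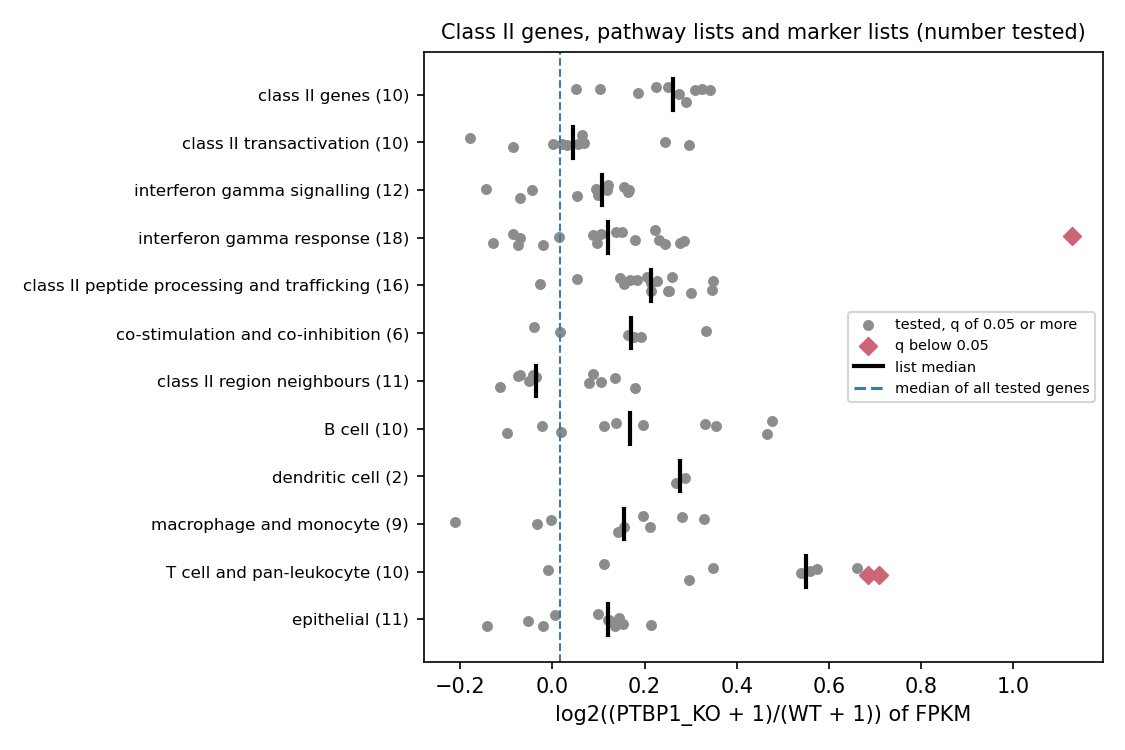
Log2((PTBP1_KO + 1)/(WT + 1)) of FPKM for each tested gene (grey dots, red diamonds where q is below 0.05), by list, with the list median (black bar) and the median of all tested genes (dashed line, 0.02). The class II genes centre on 0.26, the region neighbours on -0.04 and the T cell and pan-leukocyte markers on 0.55; vertical scatter within a row has no meaning.

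T cell and pan-leukocyte markers were mostly listed higher in PTBP1_KO, on the side of the class II genes. Of 10 such markers, 9 were listed higher, 5 had a p below 0.05 and 2 were called, with a median of 0.55. The shares over all tested genes were 54.7% listed higher, 4.35% with a p below 0.05 and 0.537% called. This list, like the others, was chosen with earlier results of these data known, so its counts are no independent test. The summed level of the 10 markers was 45.1 FPKM in WT and 69.5 in PTBP1_KO. The called genes were Cd8a, the coreceptor of cytotoxic T cells, which rose from 4.30 to 7.52 FPKM with a q of 0.0125 in the authors' deposited table, and Laptm5, a lysosomal protein of leukocytes, which rose from 4.38 to 7.79 FPKM with a q of 0.0305 in the authors' deposited table. Cd3g, a chain of the T cell receptor complex, had 9.11 and 14.98 FPKM, and Coro1a, a leukocyte actin regulator, had 7.14 and 8.99 FPKM. The other 3 of the 5 were Cd3g, Cd3e and Ptprc, which were not called.

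Cell types that make class II constitutively had low marker levels in both groups. Of 10 B cell markers, 8 were listed higher, none was called, 1 had a p below 0.05 and the median of the B cell markers was 0.17. Over all tested genes, 54.7% were listed higher, 4.35% had a p below 0.05 and 0.537% were called. With a pseudocount of 0.1 or 0.01 the median of the B cell markers was 0.31 or 0.34, and among those of at least 1 FPKM it was 0.26. The summed level of the B cell markers was 20.0 FPKM in WT and 25.3 in PTBP1_KO. Cd79a and Cd79b, the signalling chains of the B cell receptor, had 5.49 and 4.93 FPKM in WT and 7.97 and 5.40 FPKM in PTBP1_KO, and Cd79a was the gene with a p below 0.05. Of 10 dendritic cell markers only Itgax and Siglech were tested by the authors, and neither was called. Itgax had 0.721 and 1.10 FPKM, Siglech had 0.156 and 0.391 FPKM with a p of 0.00615 in the authors' deposited table, and the summed level of the list was 1.28 FPKM in WT and 2.35 in PTBP1_KO.

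The shares for all tested genes, 54.7% listed higher, 4.35% with a p below 0.05 and 0.537% called, apply here too. C1qc and Ly6c2, macrophage and monocyte markers, were at low levels. C1qc had 0.161 FPKM in WT and 0.412 in PTBP1_KO, and Ly6c2 had 0.158 and 0.455 FPKM. Of 12 macrophage and monocyte markers 9 were tested, none was called, 6 were listed higher, and 2, C1qc and Ly6c2, had a p below 0.05. Their median was 0.15, with 0.40 and 0.45 at pseudocounts of 0.1 and 0.01 and -0.0039 among genes of at least 1 FPKM, and their summed level was 17.8 FPKM in WT and 18.7 in PTBP1_KO. Itgam, an integrin chain of myeloid cells, had 4.21 FPKM in WT and 4.19 in PTBP1_KO. None of the B cell, dendritic cell or macrophage markers was listed at 0 in either group. Of 11 epithelial markers, 8 were listed higher and none was called or had a p below 0.05, with a median of 0.12 and a summed level of 6591 FPKM in WT and 7142 in PTBP1_KO. The part of leukocyte RNA in the class II levels was not tested. In bulk RNA a change in the number of cells of a type and a change in RNA per cell cannot be told apart.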

How the data were processed

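The submitters' processing notes name mm10, bcl2fastq 2.20 and Trimmomatic 0.38, with STAR 2.6.1d, Cuffdiff and Cufflinks, and give no role or order. The authors deposited 1 FPKM value per group and gene, so depth is unknown and no SD, interval or test of single libraries could be made. Their log2 fold change, p-value and q-value were used as deposited, and adjusting the p-values of the 15460 tested genes by Benjamini-Hochberg gave the same q-values to within 5.01e-07. The splicing tables, in MATS layout per the file headers, hold read counts per library, inclusion levels, an inclusion level difference (a score between -1 and 1 computed by the authors), p-values and FDR. The version of that tool is not given in the sources used here. Inclusion levels recomputed from the deposited counts and lengths agreed within 0.0005 for all 43 member events. Intervals were not computed for inclusion, and reads of one library are not independent molecules.

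Log2 ratios used a pseudocount of 1 FPKM, which understates changes of low genes, and genes that the authors did not test were left out of medians and counts. Groups came from the sample titles. Named genes were the 10 members, Ptbp1, each called gene and the 2 genes of highest mean FPKM of every list (1 of these is not reported here), the 3 genes of nearest log2 fold change, and for each member its changed event or the event of smallest p. Members and lists were chosen with earlier results of these data known. Positions are 1-based, from GENCODE M21, which matched 54583 of 55331 gene identifiers with their version. Promoters come from RefSeq GRCm38.p6, and 7 of 10 members matched by symbol. Transcripts were aligned with Biopython 1.88, and calculations used Python 3.11.15, numpy 2.4.6 and pandas 2.3.3. The counting rules and the letter search were tested on simulated data. Other thresholds, pseudocounts, a level filter, centring, read minima and spacings were tried.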

Additional observations from a re-analysis of the deposited data

How the results depend on the processing

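The count of called members was 0 at a q below 0.1 or 0.01, at an unadjusted p below 0.05, with a fold of at least 1.5 or a log2 fold change of 1 or more in size, and among genes of at least 1 FPKM. The whole table had 672 genes at an unadjusted p below 0.05, 41 with a log2 fold change of 1 or more in size and 0 at a q below 0.01. The members' median log2 ratio was 0.25 after centring on all tested genes. All 10 members stayed above 0 with a pseudocount of 0.1 or 0.01 and after centring, and H2-Oa was at 0.09 with either pseudocount against 0.05 with 1 FPKM. The median of the macrophage and monocyte markers was -0.0039 among genes of at least 1 FPKM, where fewer genes entered, and 0.40 and 0.45 at pseudocounts of 0.1 and 0.01. At those pseudocounts the medians of the B cell markers (0.31 and 0.34), the dendritic cell markers (0.75 and 0.94) and the co-stimulation genes (0.32 and 0.36) were also higher. Changed member events numbered 3 with a minimum difference of 0.05 or none and 0 with 0.2, which the Cd74 exon difference of 0.109 does not reach. Read minima left the count at 1. The box pair was found for 3 members under each spacing and Y box setting. No paired analysis was possible because the gene table has 1 value per group and the splicing sets carry no genotype or replicate label. For gene levels no replicate could be left out, since the table has 1 value per group. For the Cd74 exon, leaving out each library in turn, a setting chosen after seeing the data, gave differences of 0.1 to 0.12, with no test because the authors' FDR was not refitted.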

Other observations

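Co-stimulatory and co-inhibitory ligands, the second signal that antigen-presenting cells give to T cells, were at low levels beside class II. Of 11 genes 10 were in the table and 6 were tested, none was called or had a p below 0.05, and 5 were listed higher in PTBP1_KO, with a median log2 ratio of 0.17 (0.32 and 0.36 at pseudocounts of 0.1 and 0.01). Over all tested genes, 54.7% were listed higher, 4.35% had a p below 0.05 and 0.537% were called. Icosl, the ligand of ICOS, had 4.01 FPKM in WT and 3.87 in PTBP1_KO. Cd48, a ligand of CD2 family receptors, had 1.27 and 1.85 FPKM. The classical ligands Cd80 and Cd86, named after their values were seen, were listed at 0.0613 and 0.208 FPKM in WT and 0.161 and 0.148 FPKM in PTBP1_KO, and the authors did not test them.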
